A study of Rattus norvegicus with 2 samples.

Results

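Rat bone marrow mesenchymal stem cells (bmMSCs), untransfected or transfected with pancreatic transcription factors, were sequenced as separate libraries. Among the genes listed for them, 43 named genes had 0 reads in the untransfected cells and at least 13 reads in the transfected cells. They were taken from a deposited table of 2325 rows, of which 109 (4.69%) had 0 untransfected reads. Of these 109 rows, 42 carried no symbol, 5 carried a sequence number in place of a rat gene identifier and 62 named a rat gene. From the 62, the rule left out 7 genes by name, 1 solute carrier, 9 genes with kinase or receptor in their names and 2 further genes annotated to the defense response. The rule read the untransfected count, and the table itself holds only genes that had passed the authors' limits on the change and its false discovery rate. Absence from the untransfected library and presence in the transfected library are therefore how the genes were chosen, and they are given below as a description without a test.

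The series comprised 1 library per group, both from passage 3 to 5 bone marrow mesenchymal stem cells of Sprague-Dawley rats. One group was untransfected, which the submitters call the negative control (NC), and the other was taken 10 days after Pdx1 plus Ngn3 (Neurog3) had been introduced together. The labels give no control that was transfected without these genes, so the procedure of transfection and the introduced genes cannot be told apart. No day of collection is given for the untransfected library, so time in culture cannot be told apart from them either. Depth was 7800831 reads in the untransfected and 7415094 reads in the transfected library, as implied by the deposited counts, lengths and RPKM values (reads divided by the length of the gene and by the library total). Pdx1 itself, which is not among the 43 genes, had 0 and 565 reads, and reads of the introduced and the endogenous gene cannot be separated here. With 1 library per group no spread between cultures could be estimated. The intervals below, exact 95% Poisson limits for RPKM and Clopper-Pearson limits for folds, cover counting error of independent reads alone. Reads amplified by PCR without molecular identifiers are not independent molecules, so the intervals may be too narrow even for counting error. In RNA from a whole culture, a few cells with much of a transcript and many cells with little of it cannot be told apart.

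Bone marrow mesenchymal stem cells are fibroblast-like stromal cells that can form bone, cartilage and fat. Pdx1 is a homeodomain factor of pancreas development and of the mature beta cell, and Neurog3 is a basic helix-loop-helix factor that starts the endocrine programme of the pancreas. Helix-loop-helix factors of this family bind short DNA motifs called E-boxes, and close relatives of Neurog3 start neuron formation. Most of the 43 genes are best known from tissues other than bone marrow stroma. They were grouped by that tissue from textbook knowledge after their names were seen: 12 genes of the nervous system, 7 of extracellular matrix and skeleton, 4 of developmental signalling, 4 of blood and immune cells, 2 of muscle, 3 of kidney and liver, 4 of testis, prostate and cilia, and 7 that were not placed. A place in a group says where a gene is commonly used and not that such cells were present. The other rows were not grouped in this way, so these counts have no share over the table beside them. By deposited annotation, nervous system processes were given for 8.11% of the annotated genes among the 43. That share was 9.29% among the other higher rows under the same exclusions.

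The 43 genes together held 1786 transfected reads, 0.0241% of that library. Reads were uneven: Rgs4, Spon1, Angptl1, Opcml and Mmd2 held 761 of them (42.6%), and 28 genes had fewer than 30 reads. For a library at 0 reads the fold was computed against a floor of 3 reads, the number that a count of 0 allows. Each fold written as "at least" is thus a bound for the untransfected 0 only and takes the transfected count as it stands, while the exact lower limit also covers the counting error of the transfected library and is smaller for each gene. Against the floor all 43 genes were at least 2-fold higher in transfected cells, as were 63.5% of all listed rows in the higher direction, and 16 were at least 10-fold higher, against 9.33% of all rows. Under median-of-ratios scaling 39 of the 43 reached 2-fold and 6 reached 10-fold, and under TMM scaling 10 reached 10-fold. Both counts follow from the choice of the genes and are given as a description. When the interval of the share of reads is used instead, 12 of the 43 had an exact lower limit of 10-fold or more.

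**Figure D1:**
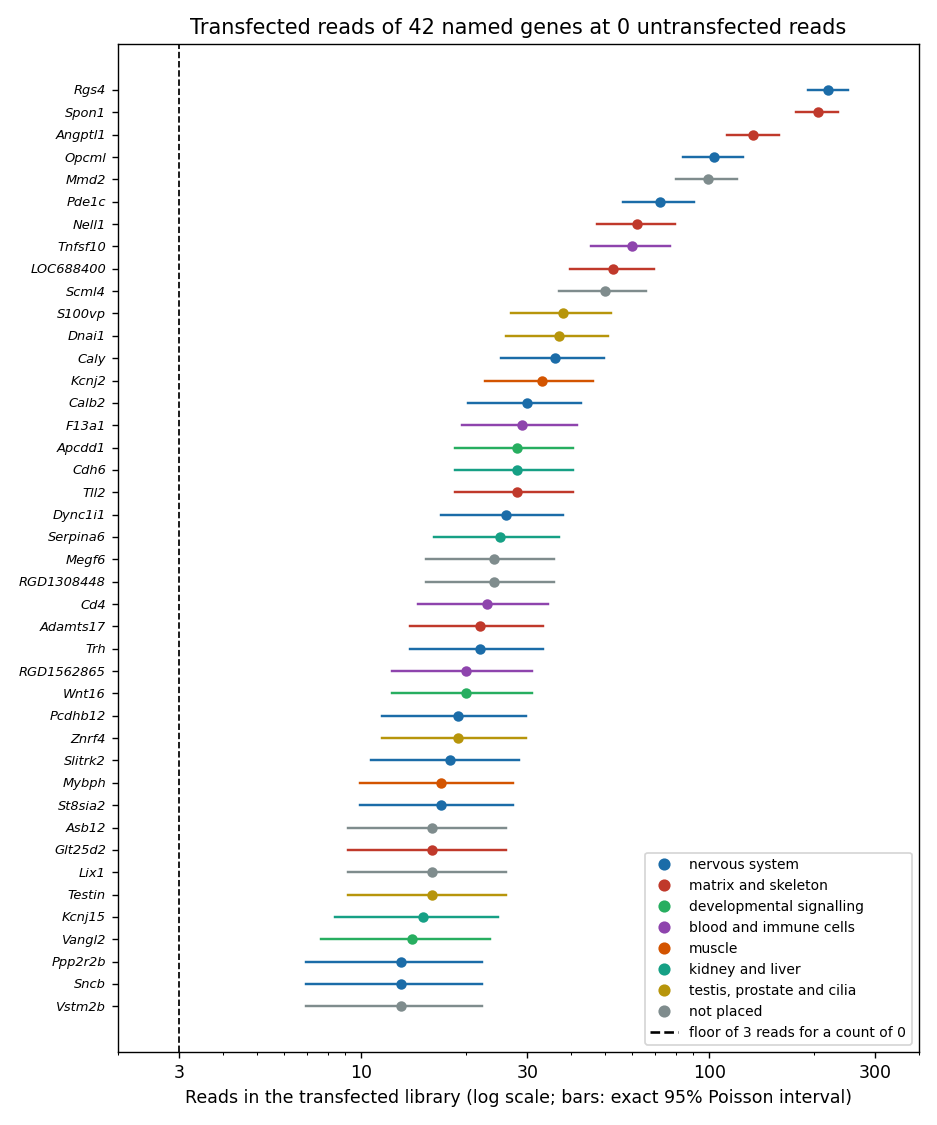
Reads of 42 of the 43 genes in the transfected library on a logarithmic axis, with exact 95% Poisson intervals as bars and the 3-read floor for the untransfected library as a dashed line; colours give the tissue of known use. Rgs4 is highest at 220 reads and 3 of the plotted genes sit at 13 reads, and every interval lies above the floor.

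The low end of the untransfected library differed from that of the transfected library. No row of the table had exactly 1 untransfected read, although 109 rows had 0 and 34 rows had 2. In the transfected library 9 rows had 0 reads, 11 rows had 1 read and 25 rows had 2. Rows at 2, 4, 6, 8 and 10 untransfected reads numbered 34, 32, 30, 30 and 27. Those at 3, 5, 7 and 9 untransfected reads were fewer, at 16, 24, 22 and 20. The transfected library did not alternate in this way, with 16, 11 and 14 rows at 3, 4 and 5 reads. The reason was not tested, and the floor and the intervals take each read as a separate count. Whether a listed 0 always stands for no read in the untransfected library was not tested. If each of the 43 genes had 1 untransfected read, the exact lower limit of the fold would still exceed 2 in all 43, and it would reach 10 in 8 of them instead of 12. A row with 1 transfected read had at least 17 untransfected reads, and 10 of the 43 genes had fewer reads than that opposite their 0.

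**Figure D2:**
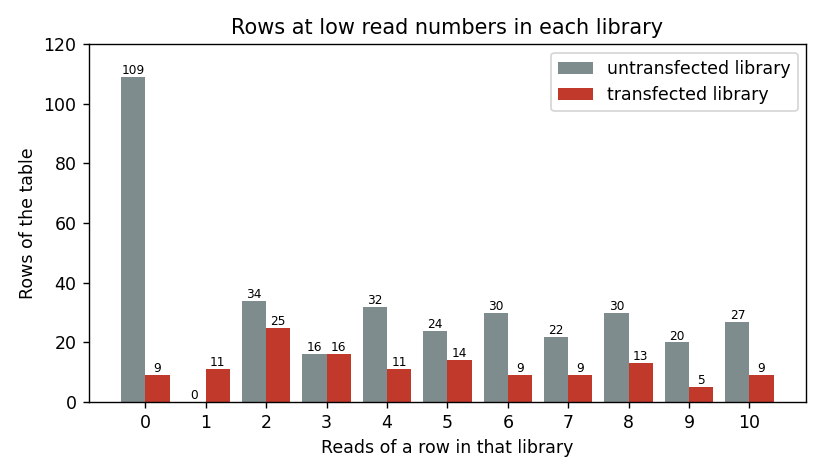
Number of rows of the table (vertical axis) with 0 to 10 reads (horizontal axis) in the untransfected library in grey and the transfected library in red. The grey bar at 1 read is at 0 rows between bars of 109 and 34 rows, while the red bar at 1 read holds 11 rows. Grey bars at the even numbers from 2 to 10 stand above those at the odd numbers.

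Promoter letters were examined because the introduced factors are DNA-binding proteins and the 43 genes were chosen for moving the same way. RefSeq promoter windows of the GRCr8 assembly, 250 bases before to 50 after a gene's start, were matched to 34 of the 43 genes by identifier. Those without a window in the table included Spon1, Opcml, LOC688400, Scml4, Calb2, Serpina6, Cd4 and Mybph. The E-box CAGATG was in 7 of the 34 windows (20.6%) and in 16.3% of all 27457 windows. All motifs were searched on both strands. The palindromic E-box CAGCTG was in 10 of the 34 (29.4%) and in 15.1% of all windows. At least 1 of these E-boxes was in 15 of the 34 (44.1%) and in 28.8% of all windows, with no test made. The homeodomain motif TAATTA was in 1 of the 34 (2.94%, against 5.35% of all) and TAATGA in 3 (8.82%, against 10.9%). TATAAA, the letters of a TATA box but counted here at any place in the window, was in 4 (11.8%, against 14.3%). The E-boxes searched are of the form CANNTG and the homeodomain motifs share TAAT, and a match describes the letters only, not binding. Median G and C content was 56.0% in the 34 windows and 52.3% in all windows.

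The 250 bases before the start are shown for the 3 genes with the most transfected reads among those with a CAGATG match, and for the hormone gene Trh. Capitals mark the searched E-boxes on either strand, and each sequence runs 5′ to 3′ in the direction of the gene.
Rgs4 (GRCr8, chr13:84475885-84476134, minus strand): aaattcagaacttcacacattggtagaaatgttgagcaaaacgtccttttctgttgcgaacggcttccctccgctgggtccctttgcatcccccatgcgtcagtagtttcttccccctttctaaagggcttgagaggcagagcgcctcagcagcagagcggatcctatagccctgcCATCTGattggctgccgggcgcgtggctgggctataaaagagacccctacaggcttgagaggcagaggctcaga
Angptl1 (GRCr8, chr13:71513097-71513346, plus strand): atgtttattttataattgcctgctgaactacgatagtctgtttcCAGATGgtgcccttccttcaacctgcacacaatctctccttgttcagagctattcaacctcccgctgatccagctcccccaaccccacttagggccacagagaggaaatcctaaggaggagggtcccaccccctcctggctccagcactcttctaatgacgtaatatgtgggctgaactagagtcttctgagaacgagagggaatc
Mmd2 (GRCr8, chr12:17076001-17076250, plus strand): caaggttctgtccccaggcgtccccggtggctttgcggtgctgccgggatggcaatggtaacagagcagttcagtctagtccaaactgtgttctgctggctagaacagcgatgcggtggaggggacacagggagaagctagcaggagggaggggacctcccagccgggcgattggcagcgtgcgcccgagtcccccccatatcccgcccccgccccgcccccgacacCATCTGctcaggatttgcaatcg
Trh (GRCr8, chr4:126301763-126302012, minus strand): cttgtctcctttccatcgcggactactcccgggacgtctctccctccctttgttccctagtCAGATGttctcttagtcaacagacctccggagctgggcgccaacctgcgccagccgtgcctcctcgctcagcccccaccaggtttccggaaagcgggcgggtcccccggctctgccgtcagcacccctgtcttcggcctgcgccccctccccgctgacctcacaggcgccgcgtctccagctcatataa
The marked letters begin 74 bases before the start in Rgs4, 206 bases in Angptl1, 23 bases in Mmd2 and 189 bases in Trh. In Rgs4 the letters TATAAA begin 42 bases before the start. Angptl1 also holds TAATGA, 53 bases before its start.

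Genes of the nervous system held 589 reads, 33.0% of the reads of the 43 genes. Rgs4, a GTPase-activating protein that shortens G-protein signals and is abundant in brain, had 0 untransfected and 220 transfected reads. Its level was 10.2 RPKM (8.87 to 11.6) against a limit of 0.132 RPKM at the floor, at least 77.1-fold higher, with an exact lower limit of 62.2. The next gene by reads, Opcml, a neuronal cell adhesion molecule of the immunoglobulin superfamily, had 0 and 103 reads (4.53 RPKM, 3.69 to 5.49) and was at least 36.1-fold higher. The interval of Opcml lies below that of Rgs4. Pde1c, a calcium- and calmodulin-stimulated cyclic nucleotide phosphodiesterase of olfactory neurons that proliferating smooth muscle cells also use, had 0 and 72 reads, at 3.05 RPKM (2.38 to 3.84) and at least 25.2-fold higher. Caly, calcyon, a vesicle protein of neurons, had 0 and 36 reads. Per length it reached 4.62 RPKM (3.24 to 6.40), close to Opcml with overlapping intervals. Calb2, calretinin, a calcium-binding protein of interneurons, had 0 and 30 reads (2.62 RPKM, 1.76 to 3.73), at least 10.5-fold above the floor with an exact lower limit of 8.04.

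The other 7 nervous system genes had 13 to 26 reads and none reached 10-fold against the floor. Dync1i1, a dynein intermediate chain of neurons, had 26 reads at 1.32 RPKM. Trh, the precursor of thyrotropin-releasing hormone, which the hypothalamus and the fetal pancreatic islet make, had 22 reads at 2.13 RPKM (1.33 to 3.22), at least 7.71-fold above the floor. It is the only hormone precursor among the 43 genes. St8sia2, which builds polysialic acid on adhesion molecules of the developing brain, had 17 reads at 2.03 RPKM. The protocadherin Pcdhb12 had 19 reads at 0.849 RPKM and the synaptic adhesion gene Slitrk2 had 18 at 0.824 RPKM. Sncb, the presynaptic protein beta-synuclein, and Ppp2r2b, a neuronal subunit of protein phosphatase 2A, each had 13 reads, the fewest with which any row at 0 untransfected reads was listed. Per length, the interval of Trh lay just above those of Slitrk2 and Pcdhb12, and all other intervals among these 7 genes overlapped. Pcdhb12 belongs to a cluster of closely similar genes, and its count is uncertain because no source used here states how shared reads were handled.

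Matrix and skeletal genes held 520 reads (29.1%) and the highest level of all. Angptl1, a secreted angiopoietin-like protein, had 0 and 134 reads. At 13.8 RPKM (11.6 to 16.4) it stood first per length, its interval touching that of Rgs4 at the edge, and it was at least 47.0-fold higher against a limit of 0.294 RPKM. Spon1, F-spondin, a matrix protein of the neural floor plate that guides axons, had 0 and 205 reads at 6.73 RPKM (5.84 to 7.72), at least 71.9-fold higher with an exact lower limit of 57.9. Spon1 thus had more reads than Angptl1 but a lower level, since the cDNA of Spon1 is 4109 bases long and that of Angptl1 1306. Nell1, a secreted protein that promotes bone formation, had 62 reads at 2.87 RPKM (2.20 to 3.68) and was at least 21.7-fold higher. LOC688400, now named Edil3 in RefSeq, an integrin ligand of the vessel wall, had 53 reads at 5.87 RPKM (4.40 to 7.68) and was at least 18.6-fold higher. Tll2, a tolloid-like metalloprotease, had 28 reads, the metalloprotease Adamts17 had 22, and Glt25d2, now Colgalt2, which adds galactose to collagen, had 16. These last 3 lay between 1.03 and 1.84 RPKM with overlapping intervals.

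The 3 developmental signalling genes described here had 14 to 28 reads. Apcdd1, a membrane inhibitor of Wnt signalling, had 28 reads at 4.04 RPKM (2.68 to 5.84), at least 9.82-fold above the floor. The Wnt ligand Wnt16 had 20 reads at 1.62 RPKM, and Vangl2, a core protein of planar cell polarity, had 14 reads at 0.671 RPKM. That these genes had reads in the transfected library alone follows from their choice, and no share of Wnt genes over all rows was counted.

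Of the 4 genes of blood and immune cells, Tnfsf10, the apoptosis-inducing ligand TRAIL, stood out with 0 and 60 reads. It reached 9.24 RPKM (7.05 to 11.9), below Angptl1 and Rgs4 alone per length among the 43 genes, and was at least 21.0-fold higher. F13a1, the catalytic subunit of coagulation factor XIII made by platelets and macrophages, had 29 reads at 1.13 RPKM. Cd4, the coreceptor of helper T cells that rat macrophages also carry, had 23 reads at 1.77 RPKM (1.12 to 2.66). RGD1562865, now Bach2, a transcriptional repressor of lymphocytes, had 20 reads at 0.717 RPKM. From a list of 59 markers of blood and immune cells, 3 were in the table, and all 3 were higher in transfected cells, as were 63.5% of all rows: Cd4, whose direction the choice of the genes fixed, the cytotoxic granule protease Gzmb (16 and 216 reads, 14.2-fold) and the macrophage marker Cd68 (5 and 26 reads, 5.47-fold). The other markers of the list, those that define white blood cells as a whole included, were not analysed here. The part of blood cells in these reads was not tested.

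The muscle group held 2 genes. Kcnj2, an inward rectifier potassium channel that holds the resting potential of heart and skeletal muscle and of neurons, had 33 reads at 3.47 RPKM (2.39 to 4.87), at least 11.6-fold above the floor with an exact lower limit of 8.89. Mybph, myosin binding protein H, had 17 reads at 1.23 RPKM. Of 42 skeletal muscle markers, 4 were in the table and went both ways. Mybph, whose direction the choice of the genes fixed, and Cav3, muscle caveolin (64 and 252 reads, 4.14-fold), were higher. The other 2 were lower, among them Kbtbd10 (130 and 9 reads, 13.7-fold), an adaptor of muscle fibres.

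The kidney and liver genes had 15 to 28 reads. Cdh6, the cadherin of the fetal kidney, had 28 reads at 1.04 RPKM. Serpina6, the corticosteroid-binding globulin that the liver secretes, had 25 at 2.16 RPKM, and Kcnj15, a potassium channel of the kidney, had 15 at 1.36 RPKM. Their intervals overlapped pairwise.

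Genes of testis, prostate and cilia formed a group of 4. S100vp, a calcium-binding protein of the ventral prostate, had 38 reads at 6.14 RPKM (4.35 to 8.43) and was at least 13.3-fold higher. Dnai1, an intermediate chain of the dynein that moves cilia and sperm tails, had 37 reads at 2.04 RPKM and was at least 12.97-fold higher. Znrf4, a spermatid ubiquitin ligase, had 19 reads, and Testin, a cathepsin-like protein of Sertoli cells, had 16. S100vp lay above the other 3 per length, and those 3, between 1.57 and 2.11 RPKM, did not differ beyond their intervals.

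No tissue was assigned to the remaining 7 genes. Mmd2, a membrane protein of the progestin and adipoQ family, had 99 reads at 6.21 RPKM (5.05 to 7.56) and was at least 34.7-fold higher. Scml4, a Polycomb-like protein, had 50 reads at 1.56 RPKM and was at least 17.5-fold higher. RGD1308448, now Plcxd3, and Megf6 had 24 reads each. Megf6 had the lowest level of the 43 genes, 0.586 RPKM (0.375 to 0.872), over a cDNA of 5523 bases. Asb12 and Lix1 had 16 reads each and Vstm2b had 13.

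**Figure D3:**
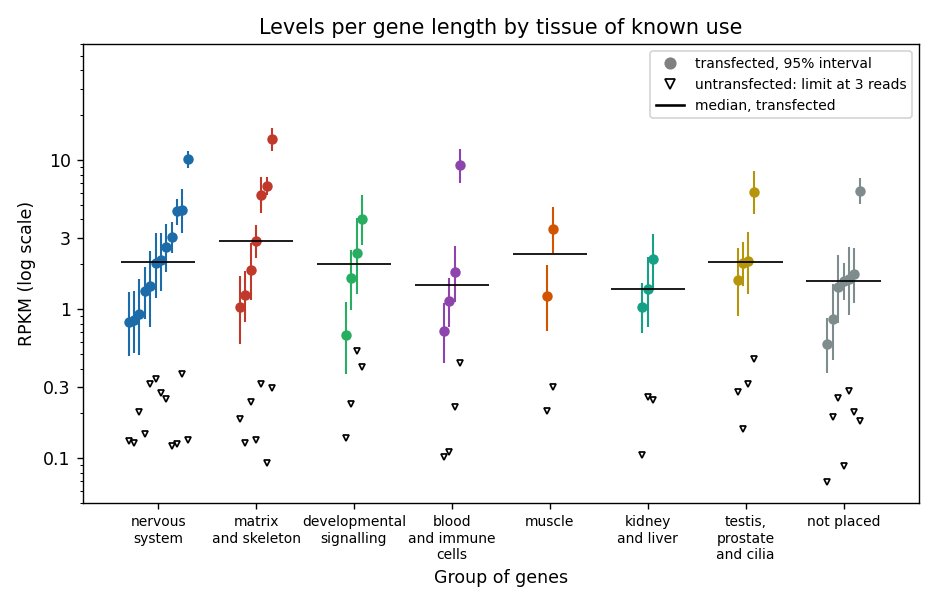
Transfected RPKM of each of the 43 genes (points with exact 95% intervals, logarithmic axis) by tissue of known use, with the group median as a line and open triangles at the RPKM that 3 reads would give in the untransfected library. Group medians lie between 1.36 RPKM for kidney and liver and 2.87 RPKM for matrix and skeleton, and every triangle lies below the interval of its own gene.

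The 43 genes were weakly expressed even where they were read. Their median level in the transfected library was 1.77 RPKM, with 36 at 1 RPKM or more and 7 (16.3%) at 5 RPKM or more. The 821 other named rows that were higher in transfected cells under the same exclusions, but had untransfected reads, had a median of 12.9 RPKM, and 77.0% of them reached 5 RPKM. Median reads were 24 and 231. The choice of rows at 0 untransfected reads favours low levels, so this contrast is a description. The recorded cDNA was also shorter, with a median of 1860 against 2596 bases. The coding part made up 90% or more of that length in 7 of the 41 genes with a recorded coding part (17.1%) and in 13.7% of the other rows with one. Those 7 were Tnfsf10, LOC688400, Kcnj2, Apcdd1, Tll2, Adamts17 and St8sia2, so for these genes length, and with it RPKM, rests on little or no untranslated sequence.

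Deposited gene ontology terms gave a check that did not rest on the grouping above. An extracellular component was annotated for 6 of the 35 genes with component terms (17.1%, against 14.6% of the other higher rows): Spon1, Angptl1, Tnfsf10, Serpina6, Adamts17 and Wnt16. A place within the membrane was annotated for 13 of the 35 (37.1%, against 28.8%), although genes with receptor in their names had been left out of both sets. Parts of neurons were annotated for Kcnj2 and Sncb alone (5.71%, against 4.48%). Nervous system processes were annotated for 3 of 37 genes with process terms, Wnt16, Slitrk2 and Ppp2r2b (8.11%, against 9.29%). No test was made of these shares, which rest on few annotated genes.

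**Figure D4:**
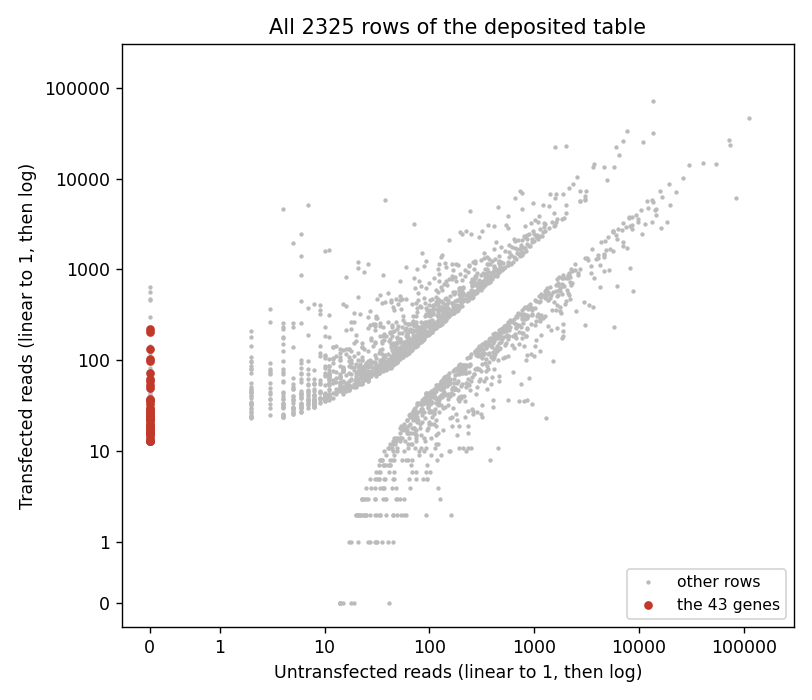
Transfected against untransfected reads for all 2325 rows, on axes that are linear up to 1 read and logarithmic beyond, with the 43 genes in red and all other rows in grey. The red points stand at 0 untransfected reads between 13 and 220 transfected reads, and no row stands at 1 untransfected read.

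Relatives by symbol were searched in the whole table for 33 of the 43 genes, and 12 had at least 1 listed relative that is not itself among the 43. Of the 32 relatives, 22 were higher and 10 lower in transfected cells, or 20 and 12 under median-of-ratios scaling, where Pde3b and Adamts14 turned. Of the 22, 2 had 0 untransfected reads themselves, Rgs5 among them, so their direction was fixed like that of the 43 genes. The table as a whole had 63.5% of rows higher. Of the 6 listed relatives of Rgs4, regulators of G-protein signalling, 4 were higher, among them Rgs7 (5.58-fold, interval 3.76 to 8.54) and Rgs3 (2.63-fold). The other 2 were lower, among them Rgs16 (248 and 11 reads, 21.4-fold). Rgs5, left out of the 43 genes by the rule, had 0 and 39 reads, and in the RefSeq gene order of GRCr8 it is the protein-coding gene next to Rgs4. Of the 62 named genes at 0 untransfected reads, 2 pairs were next to each other in that order, the second being Tnfsf10 and Ghsr, the ghrelin receptor (42 reads), which was singled out after its values were seen.

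Paralogs of several genes had reads in both libraries. Pde1a, of the same subfamily as Pde1c, went from 36 to 865 reads (25.3-fold, interval 18.1 to 36.3) and so from 2.22 to 56.1 RPKM, above the 3.05 RPKM of Pde1c. Nell2 had 2 and 27 reads (14.2-fold, 3.57 to 123). The 1 listed relative of Angptl1 and both listed relatives of Pcdhb12 were also higher. Synucleins went in opposite directions: Sncb had 0 and 13 reads, whereas Sncg, gamma-synuclein, had 134 and 17 (7.49-fold lower). The 4 listed cadherins also split, with 2 higher, among them Cdh13 (4.41-fold), and 2 lower, among them Cdh3 (7.07-fold). Of the 6 relatives of Adamts17, 5 were higher, Adamts2 by 12.4-fold, and Adamts1 was 4.98-fold lower.

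**Figure D5:**
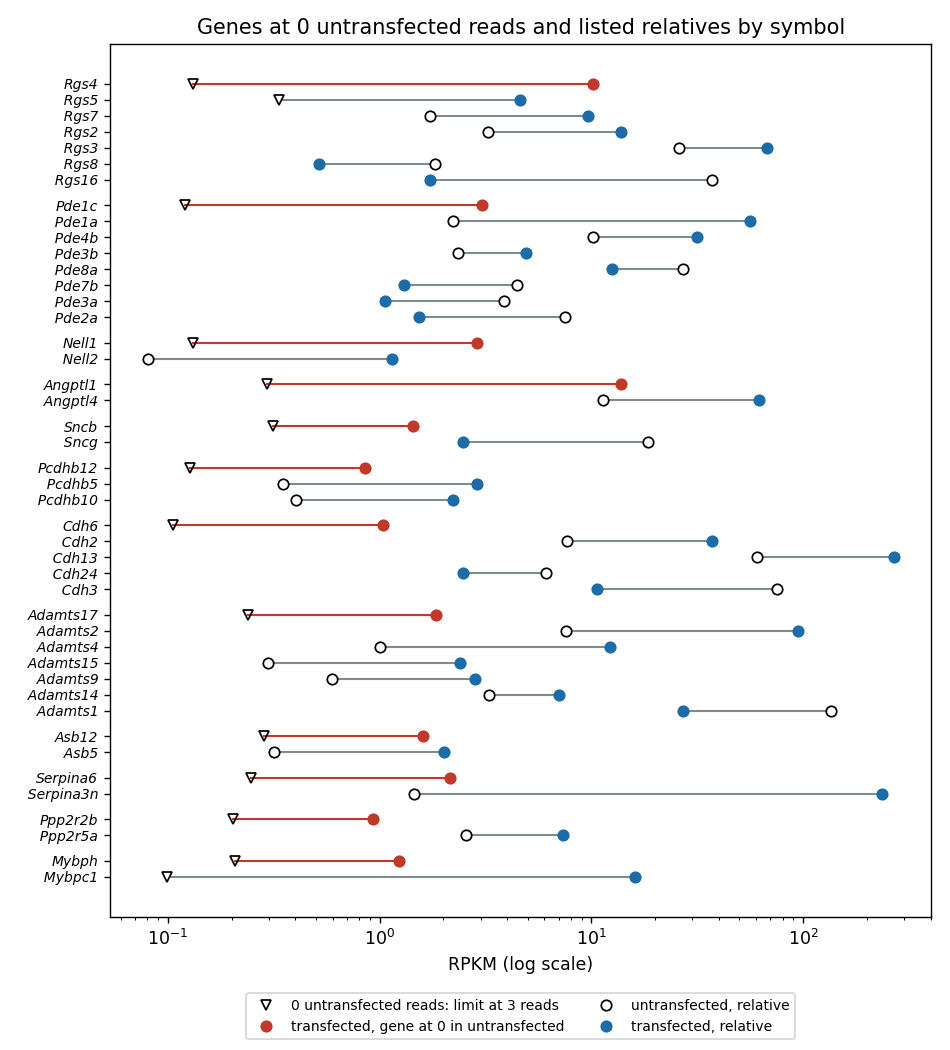
RPKM on a logarithmic axis for 12 of the 43 genes (red) and their 32 listed relatives by symbol (blue), joined to the untransfected level as an open circle, or as an open triangle at the 3-read limit where there were 0 reads. Most relatives start from a measured untransfected level, and 10 of the 32 move to the left, the furthest being Rgs16 at 37.2 and 1.74 RPKM.

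Marker lists for 16 tissues held 3 of the 43 genes, Calb2, Mybph and Cd4. From the list of 86 neuronal markers, 10 were in the table, 9 higher and 1 lower, against 63.5% of all rows higher. None turned under TMM or median-of-ratios scaling, but neither could decide the count. Every deposited log2 ratio was at least 1.00 in size, so the TMM shift of -0.78 could turn none of them. The median-of-ratios shift of -1.20 could turn only higher rows near that limit. Calb2, the 1 marker at 0 untransfected reads, is among the 9 by the choice of the genes. The microtubule protein Map2 had 4 and 128 reads (33.7-fold) and the adhesion gene L1cam 155 and 2084 (14.1-fold). Reln, reelin, a matrix protein of the developing cortex, was the lower one with 568 and 37 reads (14.6-fold). Other lists went the other way or split: of 11 listed markers of smooth muscle and pericytes 4 were higher and 7 lower, of 5 of bone and cartilage 2 and 3, of 4 of glia 2 and 2, and both of heart muscle were lower. The 4 liver markers divided 3 to 1 in favour of higher, but 2 to 2 with median-of-ratios scaling, and of 3 of pituitary, adrenal and gonad 2 were higher. Adipose and lung had 1 listed marker each, both higher, and kidney, epithelium and endothelium 1 each, all lower. None of 35 islet endocrine markers and none of 30 gut and exocrine pancreas markers was among the listed rows, and those genes were not analysed here.

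On the other side of the rule's threshold stood 20 named rows with 2 untransfected reads under the same exclusions, and none with 1. Before the exclusions, transfected reads ran from 23 to 208 in the 22 named rows at 2 untransfected reads. They ran from 13 to 638 in the 62 named rows at 0 untransfected reads, and from 13 to 220 in the 43 genes. Without the exclusions, 3 named rows had 0 transfected reads, against 62 named rows with 0 untransfected reads. The 3 were Dmrt1 (19 untransfected reads), Gna15 (15) and Ntsr2 (14), which were named after their values were seen. Of all 2325 rows, 9 had 0 transfected and 109 had 0 untransfected reads. Since no row had 1 untransfected read, a 0 may not mean the same in both libraries, which was not tested.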

How the data were processed

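Messenger RNA of 1 untransfected and 1 transfected bmMSC culture was selected with oligo(dT) beads, fragmented, copied with random hexamers and sequenced on an Illumina GA instrument, per the labels' protocols. Per the submitters' processing notes the genome build was rn4. Aligner, counter and strand setting: not given in the sources used here. The authors deposited read counts per cDNA cluster, and RPKM computed from them with 0.001 written at 0 reads. The authors also deposited a log2 ratio, a false discovery rate and a p-value. In the authors' deposited table the log2 ratios of the 43 genes (9.19 for Megf6 to 13.76 for Angptl1) rest on that 0.001 and were not used as folds. The deposited p-values compare 2 libraries and were not used. Gene length in bases is a further deposited column of another kind.

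Library totals were implied by count, length and RPKM, which gave the same total in all rows but 1. RPKM was recomputed with exact 95% Poisson limits. Folds used a floor of 3 reads for a count of 0, per library, beside exact Clopper-Pearson limits of the share (Python 3.11.15, SciPy 1.17.1). TMM (edgeR 4.0.16) and median-of-ratios (DESeq2 1.42.0) scaling on the listed genes were alternatives. Both assume that most genes do not change, whereas every listed gene had passed a limit on change. No test across replicates was possible. The interval code was tested on simulated data. The genes, tissue groups, relatives and marker lists were chosen with earlier results of these data known. Every one of the 43 genes was to be described, of which 1 is counted in the totals but not reported here; other genes were named only as relatives or list members, apart from those marked. All 43 identifiers matched RefSeq genes (GRCr8, names and gene order only), 4 with a changed symbol.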

Additional observations from a re-analysis of the deposited data

How the results depend on the processing

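The number of genes at least 10-fold above the floor, 16 of 43, depended on the floor and the scaling. It was 43 with a floor of 1 read, 10 with TMM scaling and 6 with median-of-ratios scaling, which moved all log2 ratios by -0.78 and -1.20. Both scalings were computed from the listed rows alone, which had all passed a limit on change. These shifts therefore depend on that selection and may not describe the whole libraries. A floor at the 95% limit of 1 read (4.74 reads), chosen after seeing that no row had 1 untransfected read, gave 10. It stayed within 1.5 times of the main count with the limit of 3.69 reads (13), with totals from the listed counts (19) and among genes with at least 20 or 30 reads (16 and 15). Every gene remained above 1-fold under each of these settings. With at least 13 transfected reads per gene, these floors and scalings could give no other outcome. The lowest fold was 1.98 under median-of-ratios scaling, where 39 of the 43 reached 2-fold. The median level was 1.77 RPKM, 2.39 among the 28 genes with at least 20 reads and 4.62 among the 15 with at least 30, a subset chosen for its reads. The rule gave 62 genes without its exclusions and 63 with up to 2 untransfected reads. No paired analysis was possible because each group holds 1 library. Depth limits the order of genes under 30 reads, whose intervals mostly overlap.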
